A study of Mus musculus with 20 samples.

Results

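The genes described here encode the nuclear pore and the carriers that pass through it. They are the numbered nucleoporins (Nup), the importin alpha genes (Kpna), importin beta 1 (Kpnb1), the other importins (Ipo), the transportins (Tnpo), the exportins (Xpo), and Ran with Rangap1, Ranbp1 and Ranbp2. They were chosen by gene symbol alone, and 48 of the 23309 symbols in the files matched. The study sequenced RNA of mouse oocytes and early embryos of the ICR strain, with 60 cells or embryos pooled per library. The females were 21 to 23 days old and had received PMSG and hCG, hormones that induce ovulation, and those used for embryos were mated. The Btg4 experiment has 8 groups of 2 libraries, labelled Btg4-/- or wild type at each of 4 stages: the germinal vesicle (GV) oocyte, which still has its nucleus, the mature oocyte held in the second meiotic metaphase (MII), the zygote and the 2-cell embryo. The Erk experiment has 1 library each of Erk-/- and wild-type oocytes at GV and at MII. The Btg4 allele, the males' genotype, the Erk genes behind the label and any Cre driver are not stated in the labels.

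Nuclear pore complexes are channels through the nuclear envelope, built of outer ring, inner ring and central channel nucleoporins with further proteins on the cytoplasmic side and in the nuclear basket. Importin alpha proteins bind cargo that has a classical nuclear localisation signal and enter with importin beta 1. Other importins and transportins carry cargo without importin alpha, exportins carry cargo out, and Ran sets the direction, since its GTP-bound form unloads importins and loads exportins. The envelope and its pores come apart when the oocyte resumes meiosis and are rebuilt around the pronuclei after fertilisation. BTG4, an adaptor of the CCR4-NOT deadenylase, acts on maternal mRNA over the same period.

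Values are FPKM as the authors deposited them, that is, fragments scaled by transcript length and by the size of the library. They are relative to each library. As mRNA was purified for these libraries, a change in poly(A) tail length can change FPKM without a change in amount, and fewer cells and less RNA per cell cannot be told apart. Depth, estimated from the deposited intervals, was 2780000 to 5060000 fragments in the Btg4 libraries, where 1 FPKM stands for about 12.7 to 22.9 fragments. In the Erk libraries it was 5880000 to 8350000 fragments. These figures cover counting error only. Btg4 itself had 1980 and 1881 FPKM in the GV libraries labelled Btg4-/-, against 1450 and 1673 FPKM in wild type. At the 2-cell stage it had 3514 and 3632 FPKM in the labelled libraries, against 1147 and 964 FPKM in wild type, and at MII and in zygotes it was lower than in wild type. Gene-level FPKM cannot show a partial deletion, so groups are called by their labels, and each direction given is that of the labelled libraries. Nothing in the labels says that the libraries of a group come from different animals. The p-values use the spread between the 2 libraries of a group, pooled over all 8 groups and drawn toward that of genes at similar levels. This spread may therefore be technical. Each of 10 oocyte markers was above 0 in at least 1 library of every group, except Figla, which was listed at 0 in both wild-type 2-cell libraries.

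Transport genes spanned a wide range of expression. In wild-type GV oocytes the importin alpha gene Kpna2 was highest, at 309 and 307 FPKM. Nup35 of the inner ring followed at 193 and 184 FPKM, then Nup37 of the outer ring at 152 and 159 FPKM and Kpna7, the importin alpha found mainly in oocytes and early embryos, at 115 and 125 FPKM. No neighbours in this order had overlapping libraries. At the other end, Ranbp2, the large nucleoporin of the cytoplasmic filaments, had 0.122 and 0.404 FPKM in the same libraries, and the importin alpha gene Kpna1 had 0.0494 and 0.0656 FPKM. A mean of 1 FPKM in at least 1 of the 8 groups was reached by 46 of the 48 genes, and these were tested. The other 2 encode membrane nucleoporins. Nup210 reached at most 0.98 FPKM and Nup210l at most 0.414 FPKM in the 16 libraries. Kpna1, Kpna4, Nup62cl and Xpot passed only through the wild-type 2-cell embryos, so a difference there had to be present for them.

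**Figure D1:**
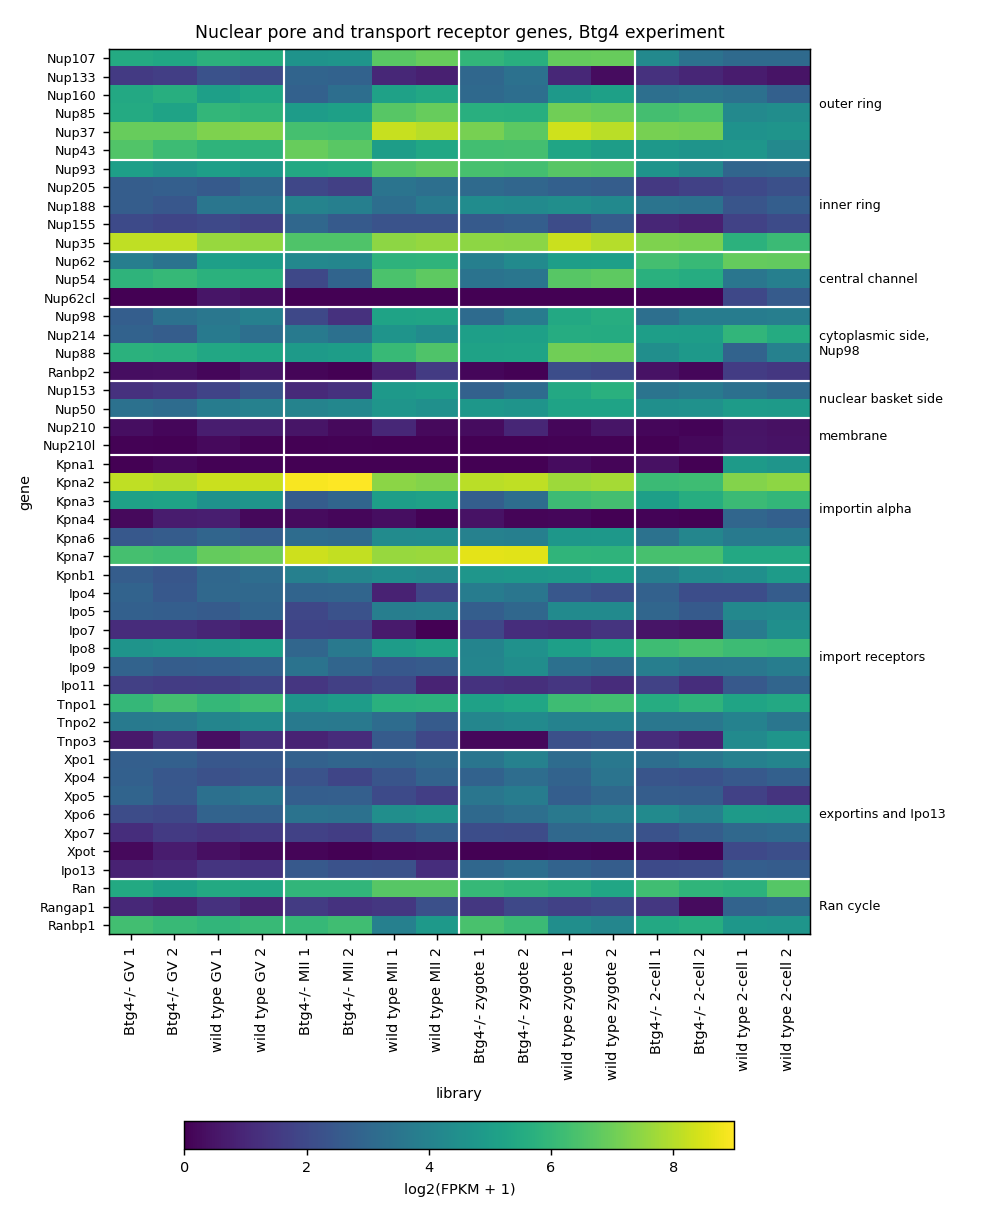
Levels of the 48 genes in the 16 libraries of the Btg4 experiment, as log2(FPKM + 1), with genes grouped by role and the labelled Btg4-/- libraries left of wild type at each stage. Kpna2, Kpna7, Nup35 and Nup37 are the brightest rows, and Kpna1, Kpna4, Nup62cl and Xpot are dark outside the wild-type 2-cell columns.

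In wild type, maturation came with higher levels of many transport genes. Between GV and MII oocytes 21 of the 46 genes rose and 7 fell at an adjusted p under 0.05 (limma on log2(FPKM + 1), Benjamini-Hochberg over all 12311 genes tested). Over all genes 25.2% rose and 28.5% fell. The median log2 difference was 0.50 for the transport genes and -0.02 for all genes. With a correction for transcript length in each library, 16 transport genes were higher and 12 lower, and the medians were 0.08 and -0.11. Of all genes, 6564 of 12202 were then called in either direction.

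Nucleoporins of the basket, the inner ring and the cytoplasmic side were among the genes that rose. Nup153, a nucleoporin of the nuclear basket, had 28.6 and 30.6 FPKM in wild-type MII oocytes, against 2.53 and 4.3 FPKM in wild-type GV oocytes (log2 difference 2.82 ± 0.24 SE, adjusted p = 5.12e-07). Nup93, a scaffold of the inner ring, had 96.3 and 111 FPKM in wild-type MII oocytes, against 32.6 and 26.3 FPKM in wild-type GV oocytes (log2 difference 1.78 ± 0.18 SE, adjusted p = 3.16e-06). Nup98, which lines the channel and reaches both faces of the pore, had 36.3 and 36.9 FPKM at MII, against 10.8 and 14.1 FPKM at GV (log2 difference 1.5 ± 0.30 SE, adjusted p = 0.000864). The stages did not overlap in any of the 28 called genes, a property that the rule for naming genes also asks for. Genes that did not pass, such as Ipo9 and Nup155, shared this property, and its share over all genes was not counted. All 4 genes of the cytoplasmic side and Nup98 group rose. Nup214 had 24.5 and 19.3 FPKM at MII, against 12.1 and 8.71 FPKM at GV (log2 difference 1.01 ± 0.20 SE, adjusted p = 0.000805). Nup88 had 66.1 and 89.9 FPKM at MII, against 41.5 and 38 FPKM at GV (log2 difference 0.94 ± 0.27 SE, adjusted p = 0.0111). Ranbp2 had 0.761 and 1.98 FPKM at MII, against 0.122 and 0.404 FPKM at GV (log2 difference 0.87 ± 0.26 SE, adjusted p = 0.0118). Both central channel genes expressed in oocytes rose as well. Nup54 had 87.5 and 109 FPKM at MII, against 53.1 and 51.6 FPKM at GV (log2 difference 0.89 ± 0.25 SE, adjusted p = 0.00908). Nup62 had 55.6 and 56.3 FPKM at MII, against 33.2 and 31 FPKM at GV (log2 difference 0.78 ± 0.17 SE, adjusted p = 0.00183).

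Carriers rose too, from the exportin of actin to the main import receptor. Xpo6, that exportin, had 20.7 and 23.5 FPKM at MII, against 6.35 and 5.95 FPKM at GV (log2 difference 1.69 ± 0.19 SE, adjusted p = 6.14e-06). Kpna6, an importin alpha, had 19.5 and 19.6 FPKM at MII, against 6.74 and 5.68 FPKM at GV (log2 difference 1.51 ± 0.22 SE, adjusted p = 6.38e-05). Tnpo3, which imports splicing factors rich in serine and arginine, had 5.0 and 2.78 FPKM at MII, against 0.30 and 1.33 FPKM at GV (log2 difference 1.45 ± 0.34 SE, adjusted p = 0.00279). The most general parts of the import machinery moved the same way. Kpnb1 had 20 and 18 FPKM at MII, against 7.03 and 8.28 FPKM at GV (log2 difference 1.21 ± 0.21 SE, adjusted p = 0.000339). Ran had 99.2 and 100.2 FPKM at MII, against 43.2 and 41.3 FPKM at GV (log2 difference 1.22 ± 0.24 SE, adjusted p = 0.000786). Kpna7 had 193 and 199.8 FPKM at MII, against 115 and 125 FPKM at GV (log2 difference 0.70 ± 0.10 SE, adjusted p = 6.91e-05). In each gene named in this group both MII libraries lay above both GV libraries. For Xpo6, Kpna6 and Tnpo3 the rule for naming genes required this. Granulosa and cumulus markers summed to 6.29 to 11 FPKM in wild-type MII oocytes, against 72.1 to 79.3 FPKM at GV, with 5 of 8 tested markers lower and 1 higher. The 6 blood genes summed to 49.6 to 84.1 FPKM at MII, against 0.738 to 2.12 FPKM at GV. The part of these cells in the step was not tested.

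The 7 genes that fell in wild-type maturation were Ipo4, Ranbp1, Xpo5, Tnpo2, Nup133, Kpna2 and Nup43. Ranbp1, a partner of Ran that helps GTP hydrolysis, had 14.2 and 27.2 FPKM in wild-type MII oocytes, against 59.2 and 66.5 FPKM in wild-type GV oocytes (log2 difference -1.62 ± 0.24 SE, adjusted p = 9.47e-05). Kpna2 had 173 and 161 FPKM at MII, against 309 and 307 FPKM at GV (log2 difference -0.88 ± 0.10 SE, adjusted p = 8.4e-06). Xpo5, the exportin of microRNA precursors, had 3.1 and 2.17 FPKM at MII, against 8.94 and 10.4 FPKM at GV (log2 difference -1.56 ± 0.24 SE, adjusted p = 0.000136). Ipo4, Tnpo2 and Nup133 fell too. Ipo4, an importin of histones and ribosomal proteins, had 0.798 and 2.63 FPKM at MII, against 7.2 and 7.21 FPKM at GV (log2 difference -1.68 ± 0.34 SE, adjusted p = 0.000917). Tnpo2 had 8.16 and 5.05 FPKM at MII, against 16.3 and 18.7 FPKM at GV (log2 difference -1.31 ± 0.22 SE, adjusted p = 0.000216). Nup133 of the outer ring had 1.0 and 0.746 FPKM at MII, against 3.83 and 3.3 FPKM at GV (log2 difference -1.29 ± 0.27 SE, adjusted p = 0.00138). The outer ring was split, since its members Nup107, Nup37 and Nup85 rose. Nup107 had 103 and 119 FPKM at MII, against 53.9 and 47.8 FPKM at GV (log2 difference 1.11 ± 0.22 SE, adjusted p = 0.000844). Nup37 had 301 and 262 FPKM at MII, against 152 and 159 FPKM at GV (log2 difference 0.85 ± 0.14 SE, adjusted p = 0.000213).

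From MII to the wild-type zygote, 14 of the 46 genes rose and 5 fell, with 20.5% of all genes rising and 8% falling. The medians were 0.26 for the transport genes and 0.22 for all genes. Median-of-ratios scaling brought both to 0.04 and the split to 5 higher and 5 lower, with 3024 of all 12205 genes called. A fit on these 4 libraries alone gave 2 higher and 3 lower, with 1161 of all 12311 genes called. Kpna7 had 58.1 and 57.4 FPKM in wild-type zygotes, against 193 and 199.8 FPKM in wild-type MII oocytes (log2 difference -1.75 ± 0.10 SE, adjusted p = 6.02e-07). Ran had 50.3 and 39.6 FPKM in zygotes, against 99.2 and 100.2 FPKM at MII (log2 difference -1.14 ± 0.24 SE, adjusted p = 0.00375). On the log2(FPKM + 1) scale Kpna7 had the deepest fall, and Kpna3, another importin alpha, had the largest rise. Kpna3 had 70.8 and 77.8 FPKM in zygotes, against 31.6 and 34.8 FPKM at MII (log2 difference 1.14 ± 0.21 SE, adjusted p = 0.00172). Tnpo2 had 15.1 and 15 FPKM in zygotes, against 8.16 and 5.05 FPKM at MII (log2 difference 1.11 ± 0.22 SE, adjusted p = 0.00253). Ipo13, which carries cargo both ways, had 6.22 and 5.37 FPKM in zygotes, against 3.7 and 1.24 FPKM at MII (log2 difference 1.06 ± 0.30 SE, adjusted p = 0.019). Nup214 (1.05 ± 0.20, adjusted p = 0.00205), Xpo5 (1.01 ± 0.24, adjusted p = 0.00854) and Ipo4 (0.98 ± 0.34, adjusted p = 0.0453) also rose. The other falls were those of Nup62 (-0.77 ± 0.17, adjusted p = 0.00563), Xpo6 (-0.75 ± 0.19, adjusted p = 0.00926) and Nup205 (-0.65 ± 0.22, adjusted p = 0.044). The 6 blood genes summed to 0 to 2.59 FPKM in wild-type zygotes, against 49.6 to 84.1 FPKM at MII, with 2 of 3 tested lower. Granulosa and cumulus markers summed to 4.04 to 4.43 FPKM in zygotes, against 6.29 to 11 FPKM at MII, with 3 of 8 tested lower. Their part in the step was not tested. These counts rested on single libraries. The 14 rises became 8 without wild-type MII replicate 2, 8 without wild-type zygote replicate 1 and 6 without wild-type zygote replicate 2. The 5 falls became 3 without wild-type MII replicate 2 and 3 without wild-type zygote replicate 1.

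Before meiotic resumption few transport genes differed between genotypes. At GV, 1 of the 46 genes was higher and 7 were lower in the libraries labelled Btg4-/-, with 1.45% of all genes higher and 6.46% lower. Nup62, the central channel nucleoporin, had 13.3 and 9.77 FPKM in labelled Btg4-/- GV oocytes, against 33.2 and 31 FPKM in wild-type GV oocytes (log2 difference -1.42 ± 0.17 SE, adjusted p = 0.000685). Nup188 of the inner ring had 5.25 and 4.42 FPKM in labelled Btg4-/-, against 10.4 and 10.4 FPKM in wild type (log2 difference -0.97 ± 0.19 SE, adjusted p = 0.00965). Kpna7 had 80.9 and 74.7 FPKM in labelled Btg4-/-, against 115 and 125 FPKM in wild type (log2 difference -0.62 ± 0.10 SE, adjusted p = 0.00355). Also lower were Xpo6 (-0.81 ± 0.19, adjusted p = 0.0202), Nup214 (-0.75 ± 0.20, adjusted p = 0.0376), Nup50 of the basket side (-0.62 ± 0.14, adjusted p = 0.0229) and Nup85 of the outer ring (-0.54 ± 0.14, adjusted p = 0.0354). The single higher gene was Nup35. Nup35 had 282 and 281 FPKM in labelled Btg4-/- GV oocytes, against 193 and 184 FPKM in wild-type GV oocytes (log2 difference 0.58 ± 0.13 SE, adjusted p = 0.0177). The genotypes did not overlap in any of the 8 genes. With 2 libraries per group this was also so in many genes that did not pass, such as Ipo13, Kpna2 and Nup107. The share over all genes was not counted. Granulosa and cumulus markers summed to 83.2 to 92.4 FPKM in labelled Btg4-/- GV libraries, against 72.1 to 79.3 FPKM in wild type, with 1 of 8 tested markers higher. Their part in the result was not tested. The medians were -0.13 for the transport genes and -0.12 for all genes. Median-of-ratios scaling brought them to 0.05 and 0.00 and the split to 3 higher and 3 lower, with 847 of all 12205 genes called. Fitted on the 4 GV libraries alone, limma called 0 of the 12311 genes. Leaving out Btg4-/- GV replicate 2 or wild-type GV replicate 1 left 0 higher and 2 lower, leaving out wild-type GV replicate 2 left 0 and 3, and leaving out Btg4-/- GV replicate 1 left 0 and 5.

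**Figure D2:**
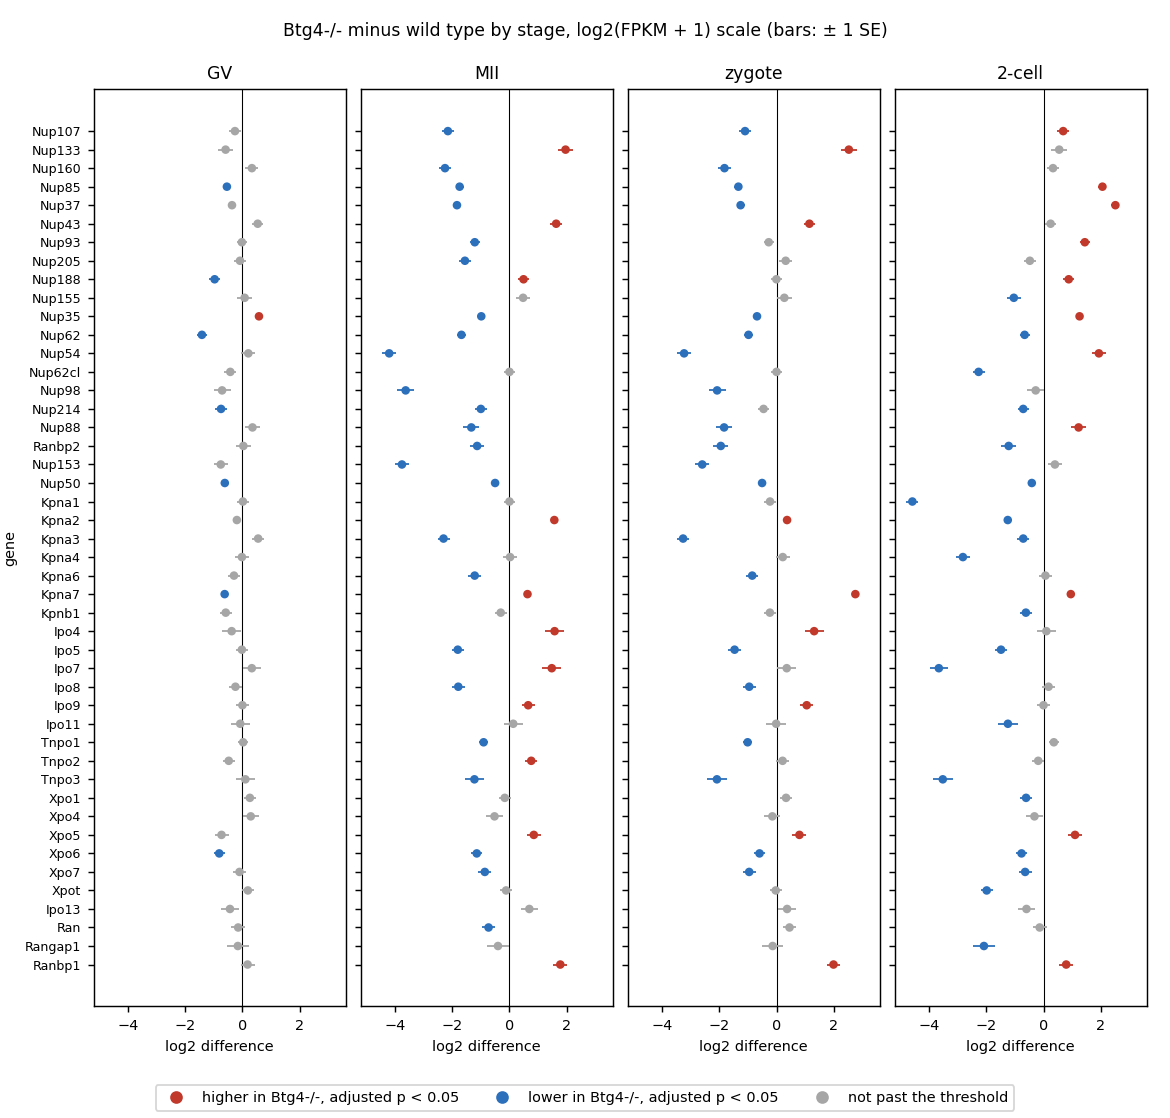
Difference between labelled Btg4-/- and wild-type libraries for the 46 tested genes at each stage, as log2(FPKM + 1). Bars are 1 SE from limma (n = 2 libraries per group), with the spread pooled over all 8 groups. Points crowd around 0 at GV and spread at MII, where Nup54, Nup153 and Nup98 lie farthest to the left and Nup133, Ranbp1 and Nup43 farthest to the right.

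The genotypes separated at MII. In the labelled Btg4-/- MII oocytes 24 of the 46 genes were lower and 11 higher, while over all genes 23.3% were lower and 29.1% higher. The median log2 difference was -0.63 for the transport genes and 0.09 for all genes. After the length correction it was -0.22 for the transport genes and 0.16 for all genes, with 14 transport genes higher and 18 lower. Of all genes, 6368 of 12202 were called with that correction. Fitted on these 4 libraries alone, 21 transport genes were lower and 6 higher, with 5511 of all 12311 genes called. Lower genes came from each pore substructure that was tested. Of the 11 higher genes, 8 encode carriers or Ranbp1, and the other 3 are Nup133, Nup188 and Nup43. The change between GV and MII itself differed between genotypes in 28 genes, with a positive interaction term in 10 and a negative one in 18, against 26.5% and 16% of all genes.

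The deepest differences on the log2(FPKM + 1) scale were in the channel, the basket and Nup98. Nup54 (chr5:92844565-92864225 in mm9) had 2.84 and 6.46 FPKM in labelled Btg4-/- MII oocytes, against 87.5 and 109 FPKM in wild-type MII oocytes (log2 difference -4.20 ± 0.25 SE, adjusted p = 3.07e-08). Nup153 (chr13:46775270-46823218) had 1.12 and 1.42 FPKM in labelled Btg4-/- MII oocytes, against 28.6 and 30.6 FPKM in wild-type MII oocytes (log2 difference -3.76 ± 0.24 SE, adjusted p = 4.66e-08). Nup98 (chr7:109282716-109358634) had 2.84 and 1.41 FPKM in labelled Btg4-/-, against 36.3 and 36.9 FPKM in wild type (log2 difference -3.63 ± 0.30 SE, adjusted p = 4.78e-07). In each of them the lower wild-type library was many times above the higher labelled one. In the labelled Btg4-/- libraries Nup54 had 56.8 and 64.5 FPKM at GV, and thus stood lower after maturation than before it.

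In the outer ring, 4 of 6 genes were lower. Nup160 had 5.92 and 8.44 FPKM in labelled Btg4-/-, against 34.3 and 41 FPKM in wild type (log2 difference -2.25 ± 0.22 SE, adjusted p = 2.75e-06). Nup107 had 23.6 and 24.7 FPKM in labelled Btg4-/-, against 103 and 119 FPKM in wild type (log2 difference -2.15 ± 0.22 SE, adjusted p = 3.32e-06). Nup37 had 79.4 and 76.8 FPKM in labelled Btg4-/-, against 301 and 262 FPKM in wild type (log2 difference -1.83 ± 0.14 SE, adjusted p = 2.81e-07). The ranges of the genotypes were far apart in each. Nup133 and Nup43, whose products belong to the same ring complex, were higher. Nup133 had 6.39 and 6.14 FPKM in labelled Btg4-/- MII oocytes, against 1.0 and 0.746 FPKM in wild-type MII oocytes (log2 difference 1.96 ± 0.27 SE, adjusted p = 5.03e-05). Nup43 had 120.2 and 103 FPKM in labelled Btg4-/-, against 30.9 and 40.2 FPKM in wild type (log2 difference 1.63 ± 0.20 SE, adjusted p = 1.68e-05). In the inner ring Nup205 (-1.56 ± 0.22, adjusted p = 6e-05), Nup93 (-1.21 ± 0.18, adjusted p = 9.65e-05) and Nup35 (-0.99 ± 0.13, adjusted p = 2.95e-05) were lower and Nup188 was higher (0.49 ± 0.19, adjusted p = 0.0478). Nup155 did not pass, with 7.06 and 4.8 FPKM in labelled Btg4-/-, against 3.91 and 3.92 FPKM in wild type (adjusted p = 0.137). The cytoplasmic nucleoporins Nup88 (-1.33 ± 0.27, adjusted p = 0.00119), Ranbp2 (-1.13 ± 0.26, adjusted p = 0.00236) and Nup214 (-1.0 ± 0.20, adjusted p = 0.000895) were lower, as was Nup50 (-0.50 ± 0.14, adjusted p = 0.0107). Nup62, which forms the channel with Nup54, had 17.2 and 16.4 FPKM in labelled Btg4-/-, against 55.6 and 56.3 FPKM in wild type (log2 difference -1.68 ± 0.17 SE, adjusted p = 3.58e-06).

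Carriers stood on both sides. Of 6 importin alpha genes 2 were higher and 2 lower, and of 10 other import receptors 4 were higher and 4 lower. Kpna2 had 481 and 512 FPKM in labelled Btg4-/- MII oocytes, against 173 and 161 FPKM in wild-type MII oocytes (log2 difference 1.57 ± 0.10 SE, adjusted p = 5.49e-08). Kpna3 had 5.21 and 6.71 FPKM in labelled Btg4-/- MII oocytes, against 31.6 and 34.8 FPKM in wild-type MII oocytes (log2 difference -2.30 ± 0.21 SE, adjusted p = 1.23e-06). Kpna2 was thus higher and Kpna3 lower. Ranbp1 and several importins were higher. Ranbp1 had 65 and 75.1 FPKM in labelled Btg4-/-, against 14.2 and 27.2 FPKM in wild type (log2 difference 1.77 ± 0.24 SE, adjusted p = 4.51e-05). Ipo4 had 6.49 and 6.74 FPKM in labelled Btg4-/-, against 0.798 and 2.63 FPKM in wild type (log2 difference 1.58 ± 0.34 SE, adjusted p = 0.00152). Ipo7, an importin of ribosomal proteins and histone H1, had 2.53 and 2.42 FPKM in labelled Btg4-/-, against 0.56 and 0 FPKM in wild type (log2 difference 1.48 ± 0.33 SE, adjusted p = 0.00191). Smaller differences passed in Xpo5 (0.85 ± 0.24, adjusted p = 0.0106), Tnpo2 (0.76 ± 0.22, adjusted p = 0.0101), Ipo9 (0.65 ± 0.22, adjusted p = 0.0262) and Kpna7 (0.63 ± 0.10, adjusted p = 0.000181). Ipo5, Ipo8, Tnpo1, Tnpo3, Kpna6, Xpo6, Xpo7 and Ran were lower. Ipo5 had 2.79 and 3.81 FPKM in labelled Btg4-/-, against 13.5 and 14.3 FPKM in wild type (log2 difference -1.81 ± 0.22 SE, adjusted p = 1.4e-05). Ipo8 had 6.78 and 11.4 FPKM in labelled Btg4-/-, against 30.8 and 35.3 FPKM in wild type (log2 difference -1.79 ± 0.23 SE, adjusted p = 2.27e-05). Tnpo1, the transportin of many RNA-binding proteins, had 24.7 and 30.8 FPKM in labelled Btg4-/-, against 51.4 and 53.6 FPKM in wild type (log2 difference -0.90 ± 0.16 SE, adjusted p = 0.000427). The general factors Kpnb1 (-0.31 ± 0.21, adjusted p = 0.253), Xpo1, the main exportin (-0.17 ± 0.22, adjusted p = 0.571), and Rangap1, the GTPase activator of Ran (-0.40 ± 0.38, adjusted p = 0.408), did not pass.

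Markers of other cells also differed at MII. The summed FPKM of 12 granulosa and cumulus genes was 1.2 to 2.19 in the labelled Btg4-/- libraries, against 6.29 to 11 in wild type. That of 6 blood genes was 0 to 1.44, against 49.6 to 84.1. Of 8 granulosa genes tested 4 were lower and 0 higher, and of 3 blood genes 2 were lower. Foxl2 of the granulosa list and the leucocyte genes Ptprc and Lyz2 were listed at 0 in both genotypes. The part of these cells in the results was not tested. Processed copies exist for genes such as Kpna2, Ran and Ranbp1, and the labels do not say whether counting used the strand. Reads of near-identical, overlapping or antisense genes therefore cannot be told apart from theirs.

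The 3′ ends of these mRNAs are shown because the tail of an oocyte mRNA is controlled from there. The cytoplasmic polyadenylation element, in its form TTTTAT, is the site through which CPEB proteins direct tail lengthening in maturing oocytes, and AATAAA and ATTAAA are poly(A) signals. The last 100 bases of 1 coding transcript per gene in GENCODE M21 (GRCm38) were searched on the sense strand. Transcripts tagged there as principal were preferred, and among equals the longest was taken. Only bases after the coding sequence were searched, which are 75 in Ipo13, 84 in Nup43 and 0 in Nup210l. TTTTAT was found in 11 of the 48 genes (22.9%) and in 14.6% of the 11019 tested genes with a transcript. It was found in 8 of the 24 genes that were lower at MII in the labelled Btg4-/- oocytes, in 1 of the 11 that were higher and in 2 of the 11 that did not pass. The windows of 30 bases show it in the 8 lower genes and in Nup43, the higher one. Capitals mark the element and any poly(A) signal, which overlap in Nup98.
Nup54: AATAAAttgttaatttgtaaTTTTATgtaa
Nup98: tTTTTATTAAAaaatatatatatatatata
Nup37: ttatTTTTATatcaaacatactgtaaatct
Nup35: tccaAATAAActttgtcaatTTTTATgtgc
Nup62: tctaTTTTATttctctgcactctattgtag
Ipo5: tgagTTTTATgcataaatcagaatttaaaa
Ipo8: gaacTTTTATgaatgtactgtaaAATAAAa
Xpo7: acatTTTTATaaAATAAAaaccatAATAAA
Nup43: aaaaTTTTATcaccagaaagtggcatttgt

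For comparison, 3 higher genes without the element in their last 100 bases are shown with the poly(A) signal in capitals.
Kpna2: taaagATTAAAgttccattctttactctga
Ranbp1: agtgAATAAAaaatgcctttgaaaacctgg
Kpna7: agttATTAAAaagcatgtattatttcctgt

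The windows lie in GRCm38, with the strand in brackets. Those of Nup54 and Nup98 are at chr5:92415540-92415569 (-) and chr7:102119468-102119497 (-). Those of Nup37 and Nup35 are at chr10:88178308-88178337 (+) and chr2:80658873-80658902 (+). Those of Nup62 and Ipo5 are at chr7:44830718-44830747 (+) and chr14:120947949-120947978 (+). Those of Ipo8 and Xpo7 are at chr6:148770708-148770737 (-) and chr14:70664854-70664883 (-). Those of Nup43 and Kpna2 are at chr10:7678819-7678848 (+) and chr11:106988629-106988658 (-). Those of Ranbp1 and Kpna7 are at chr16:18239785-18239814 (-) and chr5:144983729-144983758 (-). A match describes these letters only, since the files do not say which 3′ end oocytes use. Nup153 (-3.76), Kpna3 (-2.30) and Nup160 (-2.25) were among the genes with the deepest log2 differences and have no TTTTAT in this stretch.

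Genes that differed in the zygote stood on the side they had at MII. In zygotes 20 of the 46 genes were lower and 8 higher in the labelled Btg4-/- embryos, with 23.3% of all genes lower and 24.4% higher. This comparison shares no library with that at MII, though both use the common estimate of the spread. All 20 lower genes had been lower at MII (83.3% of the 24 there), and all 8 higher genes had been higher (72.7% of the 11). Over all genes 74.1% of those lower in zygotes had been lower at MII and 78.8% of those higher had been higher. Calls in general thus lay mostly on the same side at both stages. Nup93, Nup205, Nup214, Ran, Ipo7, Nup188 and Tnpo2 were called at MII and did not pass in the zygote. The median was -0.23 for the transport genes and 0.01 for all genes. After the length correction these were 0.04 and 0.05, with 12 higher and 14 lower, and 5732 of all 12202 genes were called. Granulosa and cumulus markers summed to 0.873 to 2.09 FPKM in labelled Btg4-/- zygotes, against 4.04 to 4.43 FPKM in wild type, with 1 of 8 tested lower. Their part in the result was not tested.

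The largest difference in each direction in the zygote was that of an importin alpha gene. Kpna7 had 399 and 391 FPKM in labelled Btg4-/- zygotes, against 58.1 and 57.4 FPKM in wild-type zygotes (log2 difference 2.75 ± 0.10 SE, adjusted p = 1.21e-09). Kpna3 had 5.51 and 8.41 FPKM in labelled Btg4-/- zygotes, against 70.8 and 77.8 FPKM in wild-type zygotes (log2 difference -3.26 ± 0.21 SE, adjusted p = 1.01e-07). The values of the genotypes lay far apart in both. Nup54, Nup153 and Nup98 were lower here too. Nup54 had 9.75 and 10.6 FPKM in labelled Btg4-/-, against 99.5 and 108 FPKM in wild type (log2 difference -3.23 ± 0.25 SE, adjusted p = 4.37e-07). Nup153 had 6.0 and 7.87 FPKM in labelled Btg4-/-, against 42.4 and 51.3 FPKM in wild type (log2 difference -2.60 ± 0.24 SE, adjusted p = 1.74e-06). Nup98 had 7.95 and 12.4 FPKM in labelled Btg4-/-, against 42.7 and 47.8 FPKM in wild type (log2 difference -2.07 ± 0.30 SE, adjusted p = 8.32e-05). Tnpo3 and Ranbp2 were nearly absent from the labelled Btg4-/- libraries. Tnpo3 had 0.15 and 0.14 FPKM in labelled Btg4-/-, against 3.56 and 4.16 FPKM in wild type (adjusted p = 0.000243) and Ranbp2 0.106 and 0.0379 FPKM in labelled Btg4-/-, against 3.41 and 2.87 FPKM in wild type (adjusted p = 4.26e-05).

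On the higher side stood Nup133, Ranbp1, Ipo4, Nup43 and Ipo9. Nup133 had 6.99 and 9.3 FPKM in labelled Btg4-/-, against 0.995 and 0.241 FPKM in wild type (log2 difference 2.53 ± 0.27 SE, adjusted p = 7.46e-06). Ranbp1 had 85 and 69 FPKM in labelled Btg4-/-, against 20.9 and 16.4 FPKM in wild type (log2 difference 1.99 ± 0.24 SE, adjusted p = 2.25e-05). Ipo4 had 12.6 and 10.6 FPKM in labelled Btg4-/-, against 4.48 and 3.63 FPKM in wild type (log2 difference 1.31 ± 0.34 SE, adjusted p = 0.00585). In each the labelled Btg4-/- libraries exceeded both wild-type libraries, which the rule for naming these genes required. Nup43 had 76.1 and 79 FPKM in labelled Btg4-/-, against 38.1 and 31 FPKM in wild type (log2 difference 1.15 ± 0.20 SE, adjusted p = 0.000391). Ipo9 had 16.2 and 20.2 FPKM in labelled Btg4-/-, against 8.91 and 7.55 FPKM in wild type (log2 difference 1.05 ± 0.22 SE, adjusted p = 0.00174). Kpnb1 (-0.23 ± 0.21, adjusted p = 0.411), Xpo1 (0.33 ± 0.22, adjusted p = 0.232) and Rangap1 (-0.13 ± 0.38, adjusted p = 0.823) again did not pass.

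**Figure D3:**
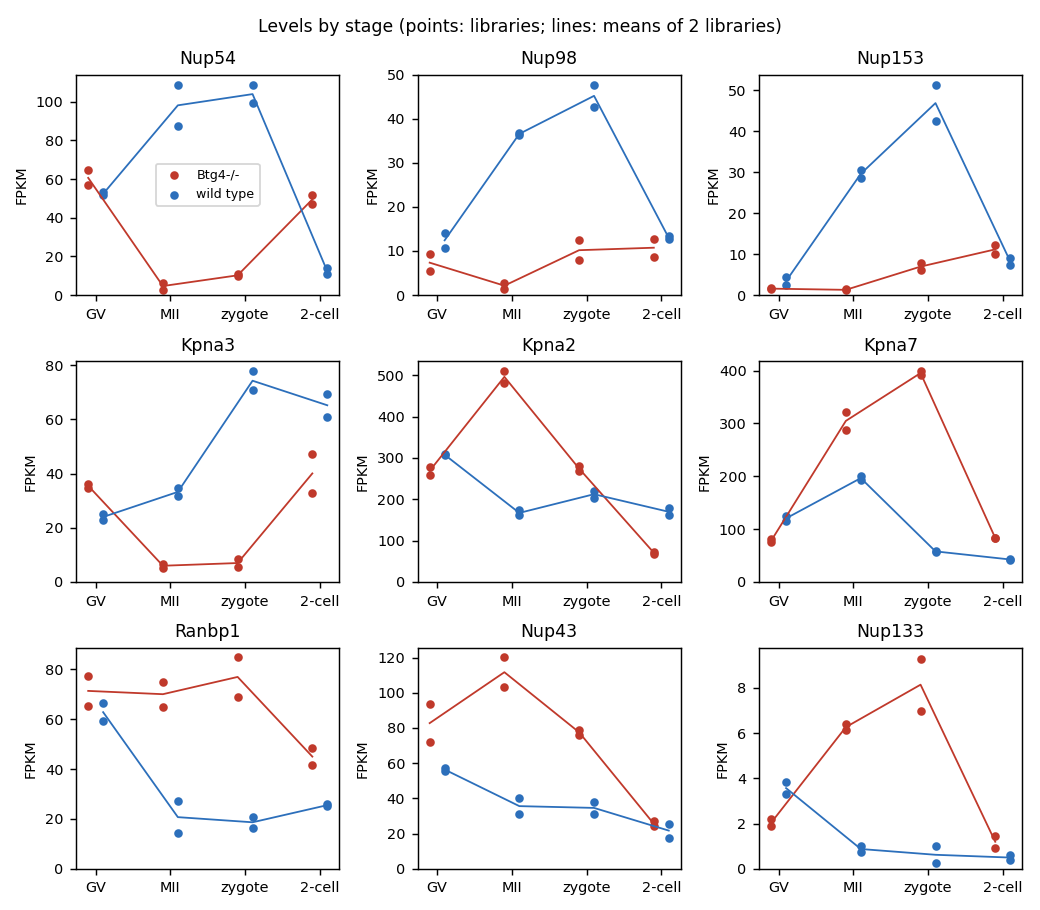
FPKM of 9 transport genes from GV to the 2-cell stage, with 1 point per library and lines through the means of 2 libraries. Nup54, Nup98, Nup153 and Kpna3 run low in the labelled Btg4-/- libraries at MII and zygote, Kpna2, Kpna7, Ranbp1, Nup43 and Nup133 run high, and Nup54 crosses over at the 2-cell stage.

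The importin alpha genes changed places with each other along this course. As a share of the summed FPKM of the 6 Kpna genes in a library, Kpna7 held 20.3% and 19.9% in labelled Btg4-/- GV oocytes, 39.4% and 35.4% at MII, 58.1% and 56.4% in zygotes and 42.8% and 37.7% in 2-cell embryos. In wild type it held 25.4% and 27%, 46.2% and 48.1%, 16.2% and 15% and 13.2% and 13.1% at these stages. Its share was highest in zygotes in the labelled Btg4-/- libraries and at MII in wild type. Kpna2 held 59% and 62.9% in labelled Btg4-/- MII oocytes, against 41.4% and 38.8% in wild type. In zygotes it held 39% and 40.4% in the labelled libraries, against 56.8% and 57.7% in wild type, and Kpna3 held 0.801% and 1.21%, against 19.7% and 20.3%. Kpna7 was thus the most abundant importin alpha in labelled Btg4-/- zygotes, and Kpna2 in wild-type zygotes. Kpna6 was lower in the labelled libraries at both stages. At MII it had 7.98 and 7.71 FPKM in labelled Btg4-/-, against 19.5 and 19.6 FPKM in wild type (log2 difference -1.22 ± 0.22 SE, adjusted p = 0.000396). In zygotes it had 14.5 and 13.9 FPKM in labelled Btg4-/-, against 25.9 and 26.8 FPKM in wild type (log2 difference -0.85 ± 0.22 SE, adjusted p = 0.00583). In the Btg4 experiment, outside the wild-type 2-cell embryos, Kpna1 reached at most 0.332 FPKM and Kpna4 at most 0.696 FPKM.

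Between the wild-type zygote and 2-cell embryo, when maternal mRNA is cleared and the embryo's own genes are switched on, 13 of the 46 genes rose and 18 fell, with 27.1% of all genes rising and 30.2% falling. Median-of-ratios scaling gave 15 and 14, with 6928 of all 12205 genes called. Without the 4 genes that entered the test through the wild-type 2-cell embryos alone, 9 of 42 rose and 18 fell. By role, 5 of 6 outer ring genes and 4 of 5 inner ring genes fell and 0 of these 11 rose. On the cytoplasmic side 2 of 4 fell, on the basket side 1 of 2, and of the central channel genes 2 rose and 1 fell. Of 6 importin alpha genes 2 rose and 3 fell, and of 10 other import receptors 4 rose and 1 fell. Of 7 genes of the exportin group 3 rose and 1 fell, and of 3 Ran cycle genes 2 rose. These role counts include the 4 genes whose rise the filter fixed. They are Kpna1 and Kpna4, the only importin alpha genes that rose, Nup62cl of the central channel and Xpot of the exportin group. Nup107 had 7.66 and 7.74 FPKM in wild-type 2-cell embryos, against 117 and 120.4 FPKM in wild-type zygotes (log2 difference -3.78 ± 0.22 SE, adjusted p = 1.88e-08). Nup93 had 6.59 and 7.02 FPKM in 2-cell embryos, against 99.6 and 95.8 FPKM in zygotes (log2 difference -3.66 ± 0.18 SE, adjusted p = 5.23e-09). Nup88 had 6.25 and 14.4 FPKM in 2-cell embryos, against 130.1 and 128 FPKM in zygotes (log2 difference -3.62 ± 0.27 SE, adjusted p = 2.1e-07). The stages were far apart in each of these, and the next falls were of similar depth. Nup37 had 23.3 and 24.1 FPKM in 2-cell embryos, against 324 and 269 FPKM in zygotes (log2 difference -3.58 ± 0.14 SE, adjusted p = 1.21e-09). Nup54 had 10.7 and 13.9 FPKM in 2-cell embryos, against 99.5 and 108 FPKM in zygotes (log2 difference -2.99 ± 0.25 SE, adjusted p = 5.08e-07). Nup85 had 17.9 and 20.4 FPKM in 2-cell embryos, against 133 and 120.2 FPKM in zygotes (log2 difference -2.66 ± 0.14 SE, adjusted p = 9.21e-09). Nup62 rose instead. Nup62 had 117 and 112 FPKM in 2-cell embryos, against 31.7 and 33.1 FPKM in zygotes (log2 difference 1.79 ± 0.17 SE, adjusted p = 1.74e-06).

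Of the 6 largest rises, those of Kpna1, Kpna4, Nup62cl and Xpot belong to genes that reached a mean of 1 FPKM in no other group of the Btg4 experiment, so the filter fixed a low level before and a rise for them. Their values are a description. Kpna1 had 28.9 and 24.6 FPKM in 2-cell embryos, against 0.244 and 0.101 FPKM in zygotes. Kpna4 had 6.76 and 5.73 FPKM in 2-cell embryos, against 0.106 and 0 FPKM in zygotes. Nup62cl, an X-linked relative of Nup62, was listed at 0 in both wild-type zygote libraries and had 2.88 and 4.98 FPKM in wild-type 2-cell embryos. Xpot, the tRNA exportin, had 2.94 and 3.48 FPKM in 2-cell embryos, against 0.0643 and 0 FPKM in zygotes. Ipo7, Tnpo3 and Rangap1, which passed the filter in other groups too, rose as well. Ipo7 had 12.5 and 21.5 FPKM in 2-cell embryos, against 1.09 and 1.53 FPKM in zygotes (log2 difference 2.93 ± 0.33 SE, adjusted p = 6.58e-06). Tnpo3 had 18.7 and 25.1 FPKM in 2-cell embryos, against 3.56 and 4.16 FPKM in zygotes (log2 difference 2.23 ± 0.34 SE, adjusted p = 0.000101). Rangap1 had 6.33 and 7.24 FPKM in 2-cell embryos, against 2.37 and 2.81 FPKM in zygotes (log2 difference 1.12 ± 0.38 SE, adjusted p = 0.0224).

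In 2-cell embryos labelled Btg4-/-, 20 of the 46 genes were lower and 11 higher than in wild type, with 26.4% of all genes lower and 22.6% higher. The medians were -0.30 for the transport genes and -0.05 for all genes. The length correction gave 13 higher and 15 lower, with 5943 of all 12202 genes called. Fitted on these 4 libraries alone, 10 transport genes were lower and 7 higher, with 3435 of all 12311 genes called. Without the 4 genes that passed the filter through wild type alone, 16 of 42 were lower and 11 higher. The step from zygote to 2-cell differed between genotypes in 31 genes, with a positive interaction term in 15 and a negative one in 16, against 22.2% and 25.9% of all genes. The 16 include the same 4 genes. The wild-type step and the comparison at the 2-cell stage share the wild-type 2-cell libraries, so their values are only set side by side. Kpna1, Ipo7, Tnpo3 and Kpna4 had the deepest differences on the log2(FPKM + 1) scale. Ipo7 had 0.436 and 0.334 FPKM in labelled Btg4-/- 2-cell embryos, against 12.5 and 21.5 FPKM in wild-type 2-cell embryos (log2 difference -3.66 ± 0.33 SE, adjusted p = 1.34e-06). Tnpo3 had 1.2 and 0.774 FPKM in labelled Btg4-/-, against 18.7 and 25.1 FPKM in wild type (log2 difference -3.52 ± 0.34 SE, adjusted p = 2.77e-06). Rangap1 had 1.78 and 0.212 FPKM in labelled Btg4-/-, against 6.33 and 7.24 FPKM in wild type (log2 difference -2.08 ± 0.38 SE, adjusted p = 0.000543). Both wild-type libraries exceeded both labelled ones in each, which the rule for naming these genes required. For the 4 genes whose difference the filter fixed, values are given as a description. Kpna1 had 0.332 and 0 FPKM in labelled Btg4-/-, against 28.9 and 24.6 FPKM in wild type. Kpna4 had 0.0515 and 0 FPKM in labelled Btg4-/-, against 6.76 and 5.73 FPKM in wild type. Nup62cl was listed at 0 in both labelled Btg4-/- libraries, and Xpot had 0.125 and 0 FPKM in labelled Btg4-/-, against 2.94 and 3.48 FPKM in wild type. Kpna2 was lower here, after having been higher at MII and in the zygote. Kpna2 had 68.6 and 72.9 FPKM in labelled Btg4-/-, against 161 and 179 FPKM in wild type (log2 difference -1.25 ± 0.10 SE, adjusted p = 5.33e-07).

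Markers of the 2-cell embryo moved with these genes. Of 8 such markers 6 are in the files, Zscan4 and Tdpoz genes among them, and their summed FPKM was 4.22 to 6.63 in the labelled Btg4-/- 2-cell libraries, against 95 to 128 in wild type. All 6 were lower at an adjusted p under 0.05, and all 10 oocyte markers were higher. Whether the labelled embryos had reached the same point of development was not tested.

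The higher genes were mainly nucleoporins, led by Nup37 and Nup85 of the outer ring. Nup37 had 143 and 136 FPKM in labelled Btg4-/- 2-cell embryos, against 23.3 and 24.1 FPKM in wild-type 2-cell embryos (log2 difference 2.51 ± 0.14 SE, adjusted p = 2.42e-08). Nup85 had 79 and 86.7 FPKM in labelled Btg4-/-, against 17.9 and 20.4 FPKM in wild type (log2 difference 2.06 ± 0.14 SE, adjusted p = 1.36e-07). Nup54 had 51.9 and 47 FPKM in labelled Btg4-/-, against 10.7 and 13.9 FPKM in wild type (log2 difference 1.93 ± 0.25 SE, adjusted p = 3.61e-05). In each, both labelled libraries lay above both wild-type ones, which the rule for naming these genes required. Nup93 (1.44 ± 0.18, adjusted p = 2.91e-05), Nup35 (1.26 ± 0.13, adjusted p = 4.7e-06), Nup88 (1.23 ± 0.27, adjusted p = 0.00252) and Xpo5 (1.1 ± 0.24, adjusted p = 0.00237) followed. The remaining ones were Kpna7 (0.95 ± 0.10, adjusted p = 6.97e-06), Nup188 (0.88 ± 0.19, adjusted p = 0.00211), Ranbp1 (0.79 ± 0.24, adjusted p = 0.0165) and Nup107 (0.69 ± 0.22, adjusted p = 0.0199). Of these 11 genes 7 had been lower in the labelled libraries at MII, namely Nup107, Nup35, Nup37, Nup54, Nup85, Nup88 and Nup93, which are 29.2% of the 24 lower genes there. Over all genes 24.4% of those lower at MII were higher at the 2-cell stage. Counted the other way, 63.6% of the 11 transport genes higher at the 2-cell stage had been lower at MII. Over all genes higher at the 2-cell stage this share was 25.2%. No test compares these shares.

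**Figure D4:**
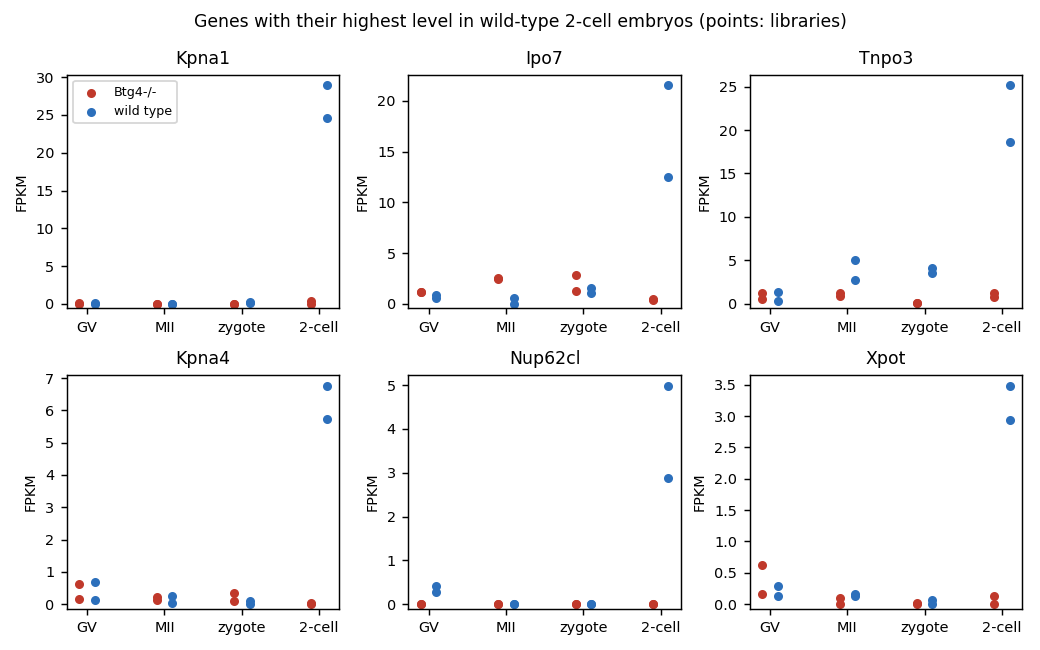
FPKM of 6 transport genes from GV to the 2-cell stage, with 1 point per library. The 6 were picked for having their highest level in the 2 wild-type 2-cell libraries, where Kpna1 reaches 24.6 and 28.9 FPKM. Kpna1, Kpna4, Nup62cl and Xpot passed the filter through that group alone, so low levels elsewhere were fixed for them. Ipo7 and Tnpo3 are also low in the 2-cell libraries labelled Btg4-/-.

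Promoters are shown of 3 genes that, among the 8 groups of the Btg4 experiment, reached a mean of 1 FPKM in the wild-type 2-cell embryos alone. In the Erk experiment Kpna4 and Xpot were above 1 FPKM in the wild-type GV library. The RefSeq table (GRCm38.p6) holds 250 bases before to 50 bases after the start and has entries for 39 of the 48 genes. Capitals mark the GC box GGGCGG and the CCAAT box CCAAT, each on either strand, with no overlap between them.
Nup62cl: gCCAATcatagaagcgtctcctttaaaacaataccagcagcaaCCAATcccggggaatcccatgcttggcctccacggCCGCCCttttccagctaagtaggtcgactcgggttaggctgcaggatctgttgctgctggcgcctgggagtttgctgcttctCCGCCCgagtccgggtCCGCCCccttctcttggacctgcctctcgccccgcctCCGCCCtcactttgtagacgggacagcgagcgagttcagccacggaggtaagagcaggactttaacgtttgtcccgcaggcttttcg
Kpna4: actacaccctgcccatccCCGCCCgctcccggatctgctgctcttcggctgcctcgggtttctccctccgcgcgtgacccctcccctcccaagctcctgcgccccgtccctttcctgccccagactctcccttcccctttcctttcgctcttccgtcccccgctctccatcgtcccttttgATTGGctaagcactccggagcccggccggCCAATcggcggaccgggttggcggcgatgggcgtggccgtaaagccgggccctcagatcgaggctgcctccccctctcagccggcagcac
Xpot: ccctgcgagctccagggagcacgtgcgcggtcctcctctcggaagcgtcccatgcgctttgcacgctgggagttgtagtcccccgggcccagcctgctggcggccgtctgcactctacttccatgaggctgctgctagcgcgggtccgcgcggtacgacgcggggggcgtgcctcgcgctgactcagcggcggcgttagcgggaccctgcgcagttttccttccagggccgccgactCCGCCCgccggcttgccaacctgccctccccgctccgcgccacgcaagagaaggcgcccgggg

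The Nup62cl promoter lies at chrX:140062519-140062818 on the - strand. The Kpna4 promoter lies at chr3:69127043-69127342 on the - strand. The Xpot promoter lies at chr10:121626283-121626582 on the - strand. A GC box was found in 35.7% of all 32851 promoters in the table and in 30 of the 46 promoters listed for 39 transport genes. A CCAAT box was found in 37.4% and in 24, and the TATA box TATAAA in 13.6% and in 5. Nup62cl has 4 GC boxes and 2 CCAAT boxes, Kpna4 has 1 and 2, and Xpot has 1 GC box. Their GC content is 59.7%, 68.7% and 72.3%, against a median of 52.7% over all promoters. The counts of boxes are not matched for it. These are matches of letters and are not shown to be sites.

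Other genes of the pathway, from a list written with earlier results known, went both ways. Of 34 tested pore and transport genes outside the symbol rule, 11 were higher and 11 lower in the labelled Btg4-/- MII oocytes, with a median of 0.03, against 0.09 for all genes. Among the 11 higher, Mlst8 encodes a subunit of the mTOR complexes and no transport factor. Pom121, a membrane nucleoporin, had 3.59 and 2.69 FPKM in labelled Btg4-/-, against 29.6 and 24 FPKM in wild type (log2 difference -2.75 ± 0.26 SE, adjusted p = 2.03e-06). Rcc1, which loads Ran with GTP on chromatin, had 6.34 and 4.36 FPKM in labelled Btg4-/-, against 35.6 and 36.9 FPKM in wild type (log2 difference -2.57 ± 0.33 SE, adjusted p = 2.85e-05). Cse1l, which returns importin alpha to the cytoplasm, had 16.7 and 18.8 FPKM in labelled Btg4-/-, against 7.09 and 7.6 FPKM in wild type (log2 difference 1.16 ± 0.20 SE, adjusted p = 0.000308). Pom121 and Rcc1 were thus lower and Cse1l higher. Of the same 34 genes, 0 were higher and 4 lower at GV, 9 and 12 in the zygote, and 6 and 9 at the 2-cell stage. Among 12 tested genes of the lamina and envelope 4 were higher and 3 lower at MII, and the lamin genes were split. Lmna had 34.8 and 32.6 FPKM in labelled Btg4-/-, against 9.27 and 6.83 FPKM in wild type (log2 difference 1.95 ± 0.19 SE, adjusted p = 2.33e-06). Lmnb2 had 3.26 and 6.05 FPKM in labelled Btg4-/-, against 0.115 and 0.378 FPKM in wild type (log2 difference 2.14 ± 0.30 SE, adjusted p = 5.04e-05). Lmnb1 had 1.57 and 3.59 FPKM in labelled Btg4-/-, against 9.97 and 13.6 FPKM in wild type (log2 difference -1.88 ± 0.28 SE, adjusted p = 9.66e-05).

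The Erk experiment has 1 library per group and therefore no replicate check and no test, so differences of at least 2-fold in FPKM + 1 were counted. Mapk3, which encodes ERK1, had 52.3 FPKM in labelled Erk-/- and 333 FPKM in wild type at GV, and 34.3 FPKM in labelled Erk-/- and 25.7 FPKM in wild type at MII. Mapk3 was thus not lower in the library labelled Erk-/- at MII, so these libraries are called by their labels. At GV, 3 of 45 transport genes were at least 2-fold higher and 6 lower in the labelled Erk-/- library, with 20.5% of all genes higher and 25.8% lower. Nup62 had 147 FPKM in the labelled Erk-/- GV library and 65.1 FPKM in the wild-type GV library. Nup35 had 107 FPKM in labelled Erk-/- and 52.3 FPKM in wild type, and Ipo13 had 20.6 FPKM in labelled Erk-/- and 6.67 FPKM in wild type. These were the 3 higher genes. The lower ones were Xpot, Nup205, Xpo4, Tnpo3, Ipo5 and Nup210. Xpot had 0.02 FPKM in labelled Erk-/- and 3.34 FPKM in wild type. Nup205 had 3.33 FPKM in labelled Erk-/- and 10.7 FPKM in wild type. Xpo4, an exportin of translation factor eIF5A, had 0.958 FPKM in labelled Erk-/- and 6.63 FPKM in wild type. Tnpo3 had 1.1 FPKM in labelled Erk-/- and 3.85 FPKM in wild type, and Ipo5 had 6.14 FPKM in labelled Erk-/- and 15.9 FPKM in wild type. Nup210 was listed at 0 in labelled Erk-/-, against 5.09 FPKM in wild type. Among importin alpha genes at GV, Kpna2, Kpna7, Kpna3, Kpna6 and Kpna4 were within 2-fold. Kpna2 had 491 FPKM in labelled Erk-/- and 538 FPKM in wild type. Kpna7 had 268 FPKM in labelled Erk-/- and 356 FPKM in wild type. Kpna3 had 17.9 FPKM in labelled Erk-/- and 28.6 FPKM in wild type.

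At MII, 10 of 40 transport genes were at least 2-fold higher and 0 lower in the labelled Erk-/- library, with 36.7% of all genes higher and 9.66% lower. The median log2 difference was 0.07 for the transport genes and 0.44 for all genes. Median-of-ratios scaling, which removes that general shift, gave 7 higher and 8 lower. The shares of all genes were not counted under it. Kpna2 had 94.4 FPKM in the labelled Erk-/- MII library and 33.3 FPKM in the wild-type MII library. Ranbp1 had 17.8 FPKM in labelled Erk-/- and 0.13 FPKM in wild type, and Nup214 had 135 FPKM in labelled Erk-/- and 25.7 FPKM in wild type. Nup188 and Xpo7 were higher as well. Nup188 had 30.5 FPKM in labelled Erk-/- and 9.49 FPKM in wild type. Xpo7, a broad exportin, had 5.24 FPKM in labelled Erk-/- and 1.57 FPKM in wild type. Ranbp1 and the other 5 were at or near 0 in the wild-type library. Xpo5 had 7.29 FPKM in labelled Erk-/- and was listed at 0 in wild type, while Ipo4, Ipo7, Ipo9 and Nup155 had 1.07 to 5.7 FPKM in labelled Erk-/- and 0.0141 to 0.0299 FPKM in wild type. A value of 0 can be a failed estimate, and 4 of the 48 transport genes are listed at 0 in the labelled Erk-/- MII library and 5 in the wild-type one. The importin alpha genes Kpna7, Kpna3 and Kpna6 were within 2-fold. Kpna7 had 194 FPKM in labelled Erk-/- and 225 FPKM in wild type. Kpna3 had 27.8 FPKM in labelled Erk-/- and 23.7 FPKM in wild type.

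Of the 11 genes that were higher in the labelled Btg4-/- MII oocytes, 7 were also at least 2-fold higher in the labelled Erk-/- MII library (63.6% of the 11 and 70% of the 10). Over all genes the overlap was 46.5% of those higher in the labelled Btg4-/- oocytes and 47.7% of those 2-fold higher in the labelled Erk-/- library. No test compares the transport genes with the rest. These are Ipo4, Ipo7, Ipo9, Kpna2, Nup188, Ranbp1 and Xpo5. Of the 24 lower ones 0 were 2-fold lower, against 8.15% over all genes. Nup214 and Xpo7 (8.33% of the 24) were 2-fold higher, against 13.9% over all genes. These overlaps use unscaled values. Median-of-ratios scaling put several transport genes 2-fold lower at MII, and the overlap was not counted under it. Nup54, which had the deepest log2 difference at MII in the Btg4 experiment, had 92.9 FPKM in labelled Erk-/- and 47.5 FPKM in wild type here. Nup153 had 40 FPKM in labelled Erk-/- and 53.1 FPKM in wild type and Nup98 80.8 FPKM in labelled Erk-/- and 124 FPKM in wild type.

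**Figure D5:**
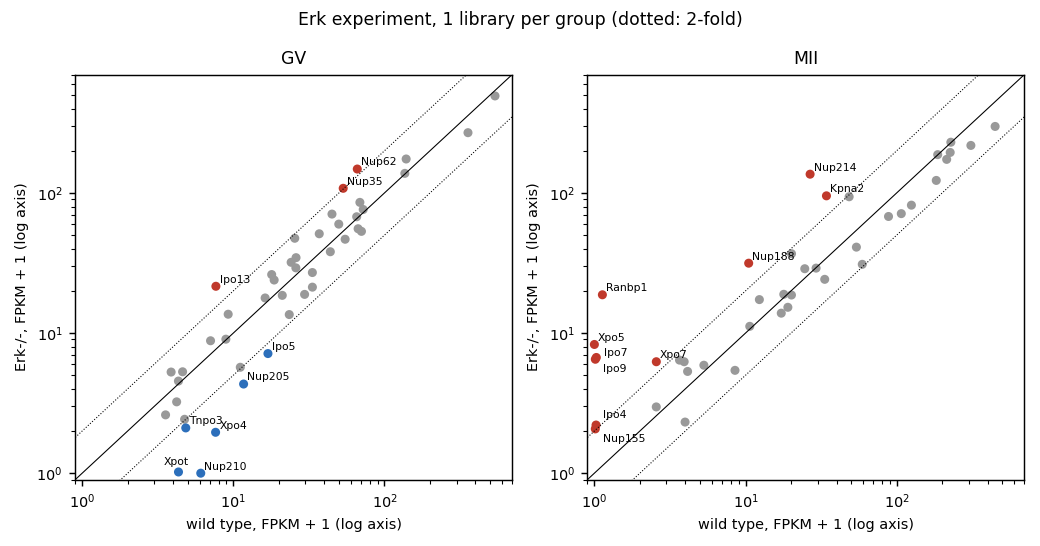
FPKM + 1 of the transport genes in the labelled Erk-/- library (vertical) against the wild-type library (horizontal) at GV and MII, 1 library per group, with genes past 2-fold named and dotted lines at 2-fold. At GV genes past the lines lie on both sides, and at MII all 10 lie above, 6 of them at the left edge where the wild-type library is at or near 0.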

How the data were processed

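RNA-seq of pooled oocytes and embryos was analysed from the FPKM values per gene that the authors deposited. The submitters' processing notes name CASAVA 1.8, TopHat, Cufflinks and the build mm9; no other versions and no annotation release were found there. Groups and replicate numbers came from the sample titles. Loci with the same symbol were summed (260 symbols), and each of the 48 transport genes has 1 locus, with 0 flagged as LOWDATA. Of the 960 deposited values of these genes, 58 lie outside the interval deposited beside them. Depth was estimated from those intervals, taken as 4 SDs wide, over genes of 20 to 500 fragments.

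Genes whose mean reached 1 FPKM in any group (12311) were fitted with limma 3.58.1 (R 4.3.3) on log2(FPKM + 1), 1 mean per group, over the 16 Btg4 libraries with a trend in the variance (8 residual degrees of freedom). Differences on this scale understate changes of genes near 1 FPKM. P-values are two-sided and adjusted by Benjamini-Hochberg over all tested genes, with a threshold of 0.05. The fit was tested on simulated data. The Erk experiment was described by ratios of FPKM + 1, with 2-fold as the limit, for genes at 1 FPKM or more in either library. Named genes are, per comparison, up to 6 with the largest difference in each direction among those past the threshold whose libraries do not overlap, with members of each role whatever their values. Alternatives were a pseudocount of 0.1, no filter, a filter at 5 FPKM, median-of-ratios scaling, a spline on transcript length per library, the replicate number as a block, a fit on each comparison's libraries alone, and leaving out each library. Sequences came from GENCODE M21 and RefSeq. The genes, lists and tests were chosen with earlier results of these data known. Locus starts in mm9 are printed as deposited and may count from 0. A further check of the Erk label is not reported here.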

Additional observations from a re-analysis of the deposited data

Results flagged for a closer look

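Between GV and MII the step itself differed between genotypes. The interaction term of the limma model (labelled Btg4-/- step minus wild-type step) passed an adjusted p of 0.05 for 28 of the 46 transport genes, 10 with a positive and 18 with a negative term, while 26.5% of all genes had a positive and 16% a negative one. The median term was -0.32 for the transport genes and 0.22 for all genes. After the length correction these were 0.09 and 0.30, with 13 positive and 13 negative, and 5016 of all 12202 genes passed. Under median-of-ratios scaling they were -0.60 and 0.03, with 9 and 21, and 5155 of all 12205 genes passed. The largest negative terms belonged to Nup54 (-4.41, adjusted p = 1.02e-06), Nup153 (-3.0), Nup98 (-2.92), Kpna3 (-2.85), Nup160 (-2.58) and Nup107 (-1.89). Nup160 had 42.5 and 49.1 at GV and 5.92 and 8.44 FPKM at MII in labelled Btg4-/- libraries, against 32.5 and 40.2 at GV and 34.3 and 41 FPKM at MII in wild type. The largest positive terms were those of Nup133 (2.55, adjusted p = 0.000171), Ipo4 (1.95), Kpna2 (1.76), Ranbp1 (1.60), Xpo5 (1.58) and Nup188 (1.46). Kpna2 had 279 and 259 FPKM at GV and 481 and 512 FPKM at MII in labelled Btg4-/- libraries, against 309 and 307 FPKM at GV and 173 and 161 FPKM at MII in wild type.

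The step into the 2-cell embryo also differed: 31 of the 46 genes passed, 15 with a positive and 16 with a negative interaction term, against 22.2% and 25.9% of all genes. The positive side was led by pore genes, Nup54 (5.16, adjusted p = 2.65e-07), Nup37 (3.76), Nup85 (3.39), Nup88 (3.06) and Nup153 (2.99), together with the importin alpha Kpna3 (2.55). Nup54 had 9.75 and 10.6 FPKM in zygotes and 51.9 and 47 FPKM in 2-cell embryos labelled Btg4-/-, against 99.5 and 108 FPKM in zygotes and 10.7 and 13.9 FPKM in 2-cell embryos of wild type, so that the order of the genotypes turned round. The negative side held Kpna1 (-4.36), Ipo7 (-4.01, adjusted p = 1.55e-05), Kpna4 (-3.04), Nup62cl (-2.27), Nup133 (-1.98) and Xpot (-1.96). Kpna1, Kpna4, Nup62cl and Xpot entered the test only through wild-type 2-cell embryos, so the filter bears on their terms, and without them 15 of 42 genes had a positive and 12 a negative term. Adjusted p-values are from limma with Benjamini-Hochberg adjustment over all genes, and each term uses libraries that the comparisons within a stage also use. For Nup62cl, listed at 0 in the other groups concerned, the size of the term depends on the pseudocount.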

How the results depend on the processing

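No named difference reversed its sign under any alternative run. With the replicate number as a block, 198 calls of named genes stayed past the threshold and 1 did not. With a pseudocount of 0.1, 193 stayed, with no filter on low values 187, with median-of-ratios scaling 185, with the length correction 170 and with a fit on the libraries of that comparison alone 154. A filter at 5 FPKM gave 187 such calls and 0 losses among the genes it kept. With the filter at 5 FPKM some genes were not tested, and genes without a transcript length gave no corrected value. Same-numbered libraries of the genotypes showed little shared deviation from their group means. The deviations correlated between genotypes at -0.010 for GV, 0.021 for MII, 0.045 for zygotes and 0.018 for 2-cell embryos. Such values cannot show whether these samples were collected or prepared together. Under the replicate block, counts such as 8 lower at GV and 10 higher at MII stayed within 1.5 times. Counts moved by more than that in these cases. At GV, median-of-ratios scaling gave 3 higher and 3 lower genes and the fit on those libraries alone 0 and 0. With a fit on their own libraries, MII had 6 higher, the 2-cell stage 7 higher and 10 lower, and the wild-type step from MII to zygote 2 higher and 3 lower. The length correction gave 12 lower in wild-type maturation and 9 higher from MII to zygote, where median-of-ratios scaling gave 5. In the Erk experiment at MII, 1 gene was 2-fold lower with a pseudocount of 0.1 and 8 with median-of-ratios scaling. The fits on few libraries have fewer residual degrees of freedom; for the other moves the cause was not tested. Leaving out 1 library at a time gave 0 to 0 higher and 2 to 5 lower genes at GV, against 1 and 7 with all libraries; the lowest counts came without Btg4-/- GV replicate 2 or wild-type GV replicate 1 (2 each) and without wild-type GV replicate 2 (3). In the wild-type step from MII to zygote it gave 6 to 10 higher and 3 to 4 lower, against 14 and 5. Elsewhere it gave 8 to 10 higher and 21 to 23 lower at MII, 6 to 8 and 18 to 20 in zygotes, 9 to 10 and 15 to 19 at the 2-cell stage, 18 to 20 and 6 to 7 in wild-type maturation, 10 to 12 and 16 to 17 from wild-type zygote to 2-cell embryo, 9 to 11 positive and 15 to 18 negative terms for GV to MII, and 13 to 15 and 11 to 17 for zygote to 2-cell; a lone remaining library is assumed to vary like the other groups. In the Btg4 libraries the median gene near 1 FPKM rests on about 12.7 to 22.9 fragments. Values under 1 FPKM therefore rest on few fragments, and differences among them are uncertain. No limit of detection was computed.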
